A study of Mus musculus with 4 samples.

Results

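The proteasome is described here at the level of its genes, in pachytene spermatocytes of mice with 2 intact copies or 1 disrupted copy of the transcription factor gene Tcfl5. The members were all genes whose symbol is Psma, Psmb, Psmc, Psmd, Psme, Psmf or Psmg followed by a number. There were 48 such genes among the 19445 genes with a value. The rule keeps the testis forms Psma8 and Psme4 and leaves out Psmc3ip, a meiotic recombination factor named for its interaction with PSMC3, and Psme2b, a close copy of Psme2. All 4 libraries were made from testis cells of adult C57BL/6 mice isolated as pachytene spermatocytes, male germ cells in the long stage of meiosis in which chromosomes recombine. The wild type (Tcfl5+/+) and the heterozygote (Tcfl5+/-) had 2 libraries each, and the comparison asks what a lower dose of Tcfl5 does to the transcripts of these cells. The labels state neither which part of the gene the disrupted copy lacks nor whether each library is from a different animal. The p-values therefore reflect the spread among the 4 libraries, part of which may be technical. Polyadenylated RNA was read as single ends of 50 bases, and levels are in FPKM, a measure that corrects for transcript length and for the number of fragments mapped in a library.

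The proteasome is the cell's main protease for proteins tagged with ubiquitin. Its barrel, the 20S core, is built from outer alpha rings and inner beta rings, and only a few of the beta subunits cut. A 19S cap of ATPase and non-ATPase subunits receives, deubiquitinates and unfolds the substrate, and other caps, the Psme activators, open the barrel without ATP. Male germ cells are known for a special core in which the alpha subunit PSMA8 takes the place of PSMA7, and for the nuclear activator PSME4 (PA200), which has been tied to the removal of acetylated histones in spermatids. Mice without Psma8 arrest in meiosis.

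Of the markers of pachytene spermatocytes, 16 of 16 had a value in every library, with a summed level of 5889 to 6194 FPKM, or 2187 to 2394 FPKM without Ldhc, the germ-cell lactate dehydrogenase. Sycp3, of the axis between paired chromosomes, was at 244 to 296 FPKM, and the linker histone gene Hist1h1t at 0.94 to 2.88 FPKM. Markers of spermatids, Sertoli cells and Leydig cells also had a value in every library. Those of spermatids summed, in replicate order, to 2188 and 1112 FPKM for the wild type, against 3092 and 2530 FPKM for the heterozygote. Without the chromatin packing genes Prm1, Prm2, Tnp1 and Tnp2 the spermatid sums were 1150 and 674 against 1063 and 821 FPKM, which overlapped. Those of Sertoli cells summed to 541 and 355 against 530 and 185 FPKM, and those of Leydig cells to 548 and 343 against 592 and 315 FPKM. Immune markers summed to 5.51 to 6.93 FPKM over 11 genes, with C1qa at 0 in replicate 2 of each genotype. Tcfl5 itself was at 249 and 238 FPKM for the wild type, against 137 and 189 FPKM for the heterozygote, a log2 difference of -0.59 (SE 0.16; limma-trend adjusted p = 0.242). The summed FPKM was 468130 to 492203 per library, and the read depth is unknown.

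Upstream sequence is shown for the 6 members with the smallest p in the higher direction of the genotype comparison below, in that order, and for Psme4, which had the smallest p in the lower direction. Psmb5 and Psmb6 encode cutting subunits, Psmc4 and Psmc5 ATPases, Psmd4 a ubiquitin receptor, Psmg4 an assembly chaperone and Psme4 an activator. Each line is the 250 bases before the transcription start in RefSeq (GRCm38.p6), 5' to 3' on the strand of the gene, which is minus for Psmb5, Psmc4 and Psmd4 and plus for the others. They lie at chr14:54617996-54618245, chr11:106255935-106256184, chr13:34162714-34162963, chr7:28050093-28050342, chr3:95042615-95042864, chr11:70525107-70525356 and chr11:30771525-30771774 in the order printed. Capitals mark matches to the motifs searched on both strands: TGACNNNGC, the core of the antioxidant response element through which the factor NFE2L1 is known to drive proteasome genes, CCAAT, the CCAAT box, and CACGTG, the E-box of many basic helix-loop-helix proteins.
Psmb5: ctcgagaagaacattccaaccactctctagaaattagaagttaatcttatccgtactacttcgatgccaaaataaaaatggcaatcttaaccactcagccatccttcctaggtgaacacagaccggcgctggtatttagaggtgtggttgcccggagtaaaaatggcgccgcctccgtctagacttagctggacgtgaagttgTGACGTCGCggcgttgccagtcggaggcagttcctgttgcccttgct
Psmc5: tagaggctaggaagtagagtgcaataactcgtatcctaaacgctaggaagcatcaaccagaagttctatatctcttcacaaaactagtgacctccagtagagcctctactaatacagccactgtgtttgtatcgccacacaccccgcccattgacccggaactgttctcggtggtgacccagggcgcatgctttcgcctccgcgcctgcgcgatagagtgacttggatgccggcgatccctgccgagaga
Psmg4: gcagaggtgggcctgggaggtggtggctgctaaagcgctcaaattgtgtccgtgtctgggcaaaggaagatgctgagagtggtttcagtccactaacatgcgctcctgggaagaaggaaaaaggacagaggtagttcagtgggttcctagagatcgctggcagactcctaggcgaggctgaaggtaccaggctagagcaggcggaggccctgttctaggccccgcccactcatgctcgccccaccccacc
Psmc4: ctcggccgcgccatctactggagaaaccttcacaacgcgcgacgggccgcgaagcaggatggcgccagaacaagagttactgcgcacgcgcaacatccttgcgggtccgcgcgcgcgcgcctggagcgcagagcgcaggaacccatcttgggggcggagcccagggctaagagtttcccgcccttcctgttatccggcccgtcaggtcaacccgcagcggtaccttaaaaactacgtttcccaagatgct
Psmd4: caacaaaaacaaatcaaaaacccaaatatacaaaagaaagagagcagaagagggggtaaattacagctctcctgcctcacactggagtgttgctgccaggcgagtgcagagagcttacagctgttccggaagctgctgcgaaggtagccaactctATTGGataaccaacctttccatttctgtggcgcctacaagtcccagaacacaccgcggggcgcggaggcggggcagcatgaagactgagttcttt
Psmb6: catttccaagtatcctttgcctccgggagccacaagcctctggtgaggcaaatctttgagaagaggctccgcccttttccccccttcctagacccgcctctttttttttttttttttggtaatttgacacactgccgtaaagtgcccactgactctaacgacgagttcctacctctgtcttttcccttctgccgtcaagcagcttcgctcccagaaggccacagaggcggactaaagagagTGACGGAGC
Psme4: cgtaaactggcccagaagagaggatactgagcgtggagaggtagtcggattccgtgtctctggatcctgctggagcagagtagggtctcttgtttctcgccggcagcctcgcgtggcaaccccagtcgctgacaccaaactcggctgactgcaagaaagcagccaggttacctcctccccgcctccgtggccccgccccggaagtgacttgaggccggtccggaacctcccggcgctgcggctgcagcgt
The match in Psmb5 began 47 bases before the start and that in Psmb6 ended at the last base before it. Psmd4 held a CCAAT box in reverse, and Psmc5, Psmg4, Psmc4 and Psme4 held none of the 3 motifs in this window. The deposited gene models start at 106256845 for Psmc5 and at 30771728 for Psme4, so their windows do not end at those starts. Over the 40 members in the promoter table, 5 held TGACNNNGC (12.5%), 14 held CCAAT (35.0%) and 4 held CACGTG. The shares over the 27025 genes in that table were 11.5%, 37.5% and 6.86%, and over the 10714 of them that were tested here 13.3%, 40.7% and 9.53%.

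As transcripts, the members together made up 0.783% and 0.759% of the summed FPKM of the wild-type libraries, against 0.784% and 0.823% for the heterozygote. Here and below values stand in the order replicate 1, replicate 2, with the wild type first. Their mean levels spanned 0.188 FPKM for Psmb9 to 515 FPKM for the ATPase gene Psmc3, with a median of 52.1 FPKM. Most belonged to the well-expressed genes of the cell, and the mean of 36 reached 20 FPKM. Those below that level were the immune and thymus forms, the interferon-inducible activators, several assembly factors and Psma7, at a mean of 16.0 FPKM. In all, 45 members averaged 0.5 FPKM or more over the 4 libraries and were tested, and Psmb8, Psmb9 and Psmb11 did not reach it.

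**Figure D1:**
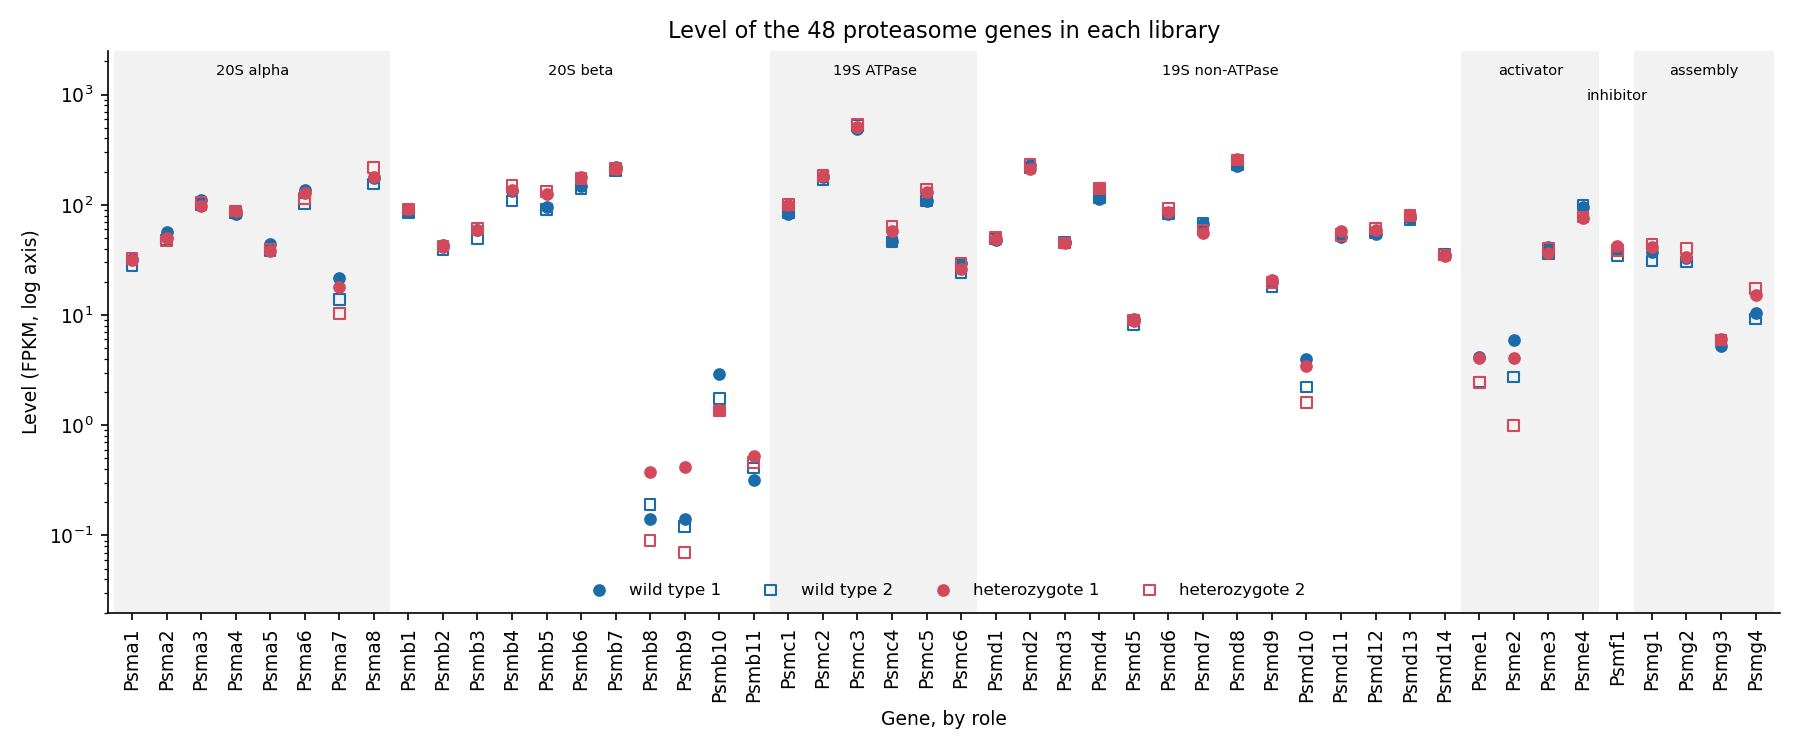
Level of each of the 48 genes in the 4 libraries (FPKM, log axis), ordered by role, with wild type in blue, heterozygote in red, replicate 1 filled and replicate 2 open. Psmc3 lies highest near 515 FPKM, and the immune forms Psmb8 and Psmb9 lie lowest, at 0.42 FPKM or less.

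The alpha ring of these cells was, by transcript, the germ-cell kind. Psma8 (chromosome 18, 14706135 to 14762301, GRCm38) was the most abundant alpha gene, at 175 and 155 FPKM for the wild type, against 177 and 218 FPKM for the heterozygote. Psma7 (chromosome 2, 180036367 to 180042464), the somatic subunit of the same ring position, was the least abundant, at 21.8 and 13.8 against 18.1 and 10.4 FPKM. Psma8 thus held 88.9% and 91.8% of the transcripts of this position for the wild type, against 90.7% and 95.5% for the heterozygote, on a scale that is per length. These 2 genes encode close relatives, and the sources used here do not say how reads matching both were shared. The other 6 alpha genes, Psma1 to Psma6, lay between at means of 31.2 to 120 FPKM, with Psma1 lowest and Psma6 highest.

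Psma7 differed between replicates more than between genotypes, being lower in replicate 2 of each. The same held for the summed Sertoli and Leydig markers given above, and for the spermatid sum without the chromatin packing genes. The part of such cells in the Psma7 value was not tested. In bulk RNA, fewer cells of a type and less RNA per cell cannot be told apart. The ratio of Psma8 to Psma7 was 8.001 and 11.2 for the wild type, against 9.79 and 21.0 for the heterozygote, so the genotypes overlapped (exact permutation test on log2 ratios, two-sided, p = 0.667, 0.333 being the smallest p that 2 libraries against 2 allow).

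The beta ring was, by transcript, of the constitutive type. Its cutting subunits are Psmb5, Psmb6 and Psmb7, for the chymotrypsin-like, caspase-like and trypsin-like activities. Psmb7 was the most abundant beta gene, at 220 and 202 FPKM for the wild type, against 213 and 215 FPKM for the heterozygote, values that overlapped. Psmb6 was at 148 and 140.5 against 179 and 172 FPKM, and Psmb5 at 95.0 and 90.4 against 125 and 131 FPKM. For both of these the heterozygote libraries lay above the wild-type ones. GENCODE M21 names processed pseudogenes after all 3, between which and the gene reads may be split. Among the beta genes that do not cut, Psmb4 had the highest mean at 132 FPKM and Psmb2 the lowest at 41.6 FPKM, with Psmb1 and Psmb3 between them.

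The immune forms replace these 3 subunits in lymphoid cells and after interferon. Psmb8 was at 0.14 and 0.19 FPKM for the wild type, against 0.38 and 0.09 FPKM for the heterozygote. Psmb9 was at 0.14 and 0.12 against 0.42 and 0.07 FPKM. Both were highest in heterozygote replicate 1 and lowest in heterozygote replicate 2. Psmb10, on chromosome 8, was higher than these at 2.93 and 1.75 against 1.38 and 1.35 FPKM, which still left Psmb7 at 75.0 to 159 times its level. The thymus form Psmb11, which replaces Psmb5 in the epithelium of the thymic cortex, was at 0.32 and 0.41 against 0.53 and 0.46 FPKM. The number of reads behind values this low is unknown, so no fold between the genotypes is given for Psmb8, Psmb9 and Psmb11. The genes for peptide transport into the secretory pathway, Tap1 and Tap2, were likewise at 0.18 to 0.41 FPKM.

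**Figure D2:**
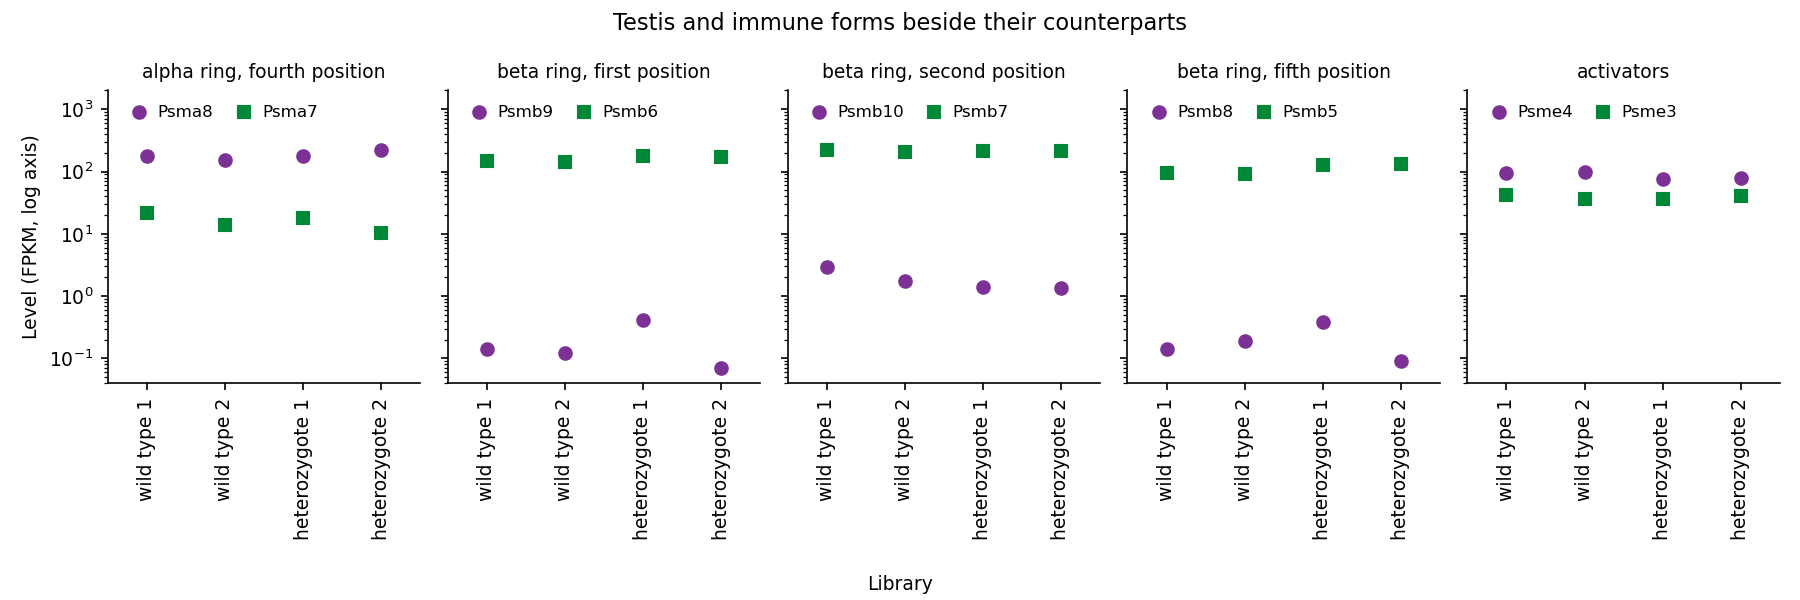
Level (FPKM, log axis) in each library of a testis or immune form (purple circle) and its counterpart (green square) at 4 ring positions, and of 2 activator genes. Psma8 exceeds Psma7 in all 4 libraries, whereas each immune form lies far below its constitutive counterpart.

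In the 19S cap, the 6 ATPase genes form a single hexameric motor yet differed widely in transcript level. Psmc3 was at 486 and 521 FPKM for the wild type, against 511 and 539 FPKM for the heterozygote, while Psmc6 was lowest at 29.7 and 24.0 against 26.4 and 29.8 FPKM. Within a library the highest was 16.4 to 21.7 times the lowest. For comparison, the 14 core genes with Psma8 in place of Psma7 and no immune or thymus form spanned 6.65 to 7.25 times. Subunits that sit in the particle at equal number were thus not equal as transcripts in any of the 4 libraries.

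Of the non-ATPase genes, Psmd8 was highest at 224 and 231 against 260 and 255 FPKM, followed by Psmd2, a scaffold that docks ubiquitin receptors, at a mean of 222 FPKM. Psmd4, a ubiquitin receptor, was at 114 and 117 FPKM for the wild type, against 141 and 141 FPKM for the heterozygote. Psmd14, the deubiquitinase of the cap, was at 35.3 and 35.5 against 34.5 and 35.1 FPKM, and its partner Psmd7 at 66.9 and 67.7 against 55.9 and 59.0 FPKM. These 2 proteins work as a pair in the lid. The genotypes overlapped for neither, and the wild-type mean was 1.02 times the heterozygote mean for Psmd14 and 1.17 times for Psmd7. The assembly factors of the cap base, Psmd5, Psmd9 and Psmd10, had the lowest means of the Psmd genes, at 8.83, 19.7 and 2.83 FPKM. Psmd10, the only X-linked member, was at 4.01 and 2.22 against 3.46 and 1.61 FPKM, lower in replicate 2 of each genotype. The median level of the 479 X-linked genes tested was lower in replicate 2 as well, at 2.49 and 1.35 against 2.04 and 1.03 FPKM, and so was the median over all 19445 genes with a value, at 2.9 and 2.2 against 2.72 and 2.02 FPKM.

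Among the activators, the germ-cell form led. Psme4 (chromosome 11, 30771728 to 30880361) was at 95.2 and 99.5 FPKM for the wild type, against 75.2 and 77.3 FPKM for the heterozygote. Psme3, a nuclear activator of most tissues, was at 41.6 and 36.3 against 36.8 and 40.6 FPKM, which overlapped. Psme1 and Psme2, whose products join in the interferon-inducible cap, were at low levels. Psme1 was at 4.12 and 2.47 against 4.10 and 2.43 FPKM, and Psme2 at 5.90 and 2.75 against 4.09 and 1 FPKM, each lower in replicate 2 of its genotype. Reads of Psme2 may also be shared with its copy Psme2b (2.96 to 5.42 FPKM). Psmf1, which encodes the inhibitor PI31, was at 38.8 and 34.6 against 42.0 and 38.3 FPKM.

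The assembly chaperones Psmg1 to Psmg4 help to build the core. Psmg1 was highest at 37.1 and 30.8 against 41.4 and 43.6 FPKM and Psmg3 lowest at 5.24 and 5.92 against 6.03 and 5.95 FPKM. Psmg4, on chromosome 13, was at 10.4 and 9.19 FPKM for the wild type, against 15.1 and 17.4 FPKM for the heterozygote. Psmg2 had a mean of 34.2 FPKM. In all 4 of these genes both heterozygote libraries exceeded both wild-type libraries, as did 23.6% of all genes tested, and for Psmg3 the nearest libraries were 5.92 and 5.95 FPKM.

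A few members followed the replicate number rather than the genotype. Replicate 1 exceeded replicate 2 in both genotypes for 14 of 48 members and replicate 2 exceeded replicate 1 for 10, while 24 were mixed. The shares of these patterns over all genes were not computed, so the counts are not read as a trait of the members. The ratio of replicate 1 to replicate 2 was furthest from 1 in Psme2 (2.15 in the wild type and 4.09 in the heterozygote), Psmd10 (1.81 and 2.15), Psme1 (1.67 and 1.69) and Psma7 (1.58 and 1.75) among members of at least 0.5 FPKM that were higher in replicate 1 of both genotypes. Psmb10 was 1.67 times as high in wild-type replicate 1 as in replicate 2 but 1.02 times in the heterozygote. Sertoli and Leydig markers were also lower in replicate 2. Their sums were at 65.7% and 62.6% of wild-type replicate 1 in wild-type replicate 2. In heterozygote replicate 2 they were at 34.1% and 57.6% of wild-type replicate 1. Most of the Leydig sum was Insl3, at 465 and 273 against 504 and 263 FPKM. The other Leydig markers were also lower in replicate 2 of each genotype. In the wild type, Cyp17a1 (32.4 and 31.4 FPKM) and Cyp11a1 (15.1 and 13.9 FPKM) were so only slightly. Replicate 2 was also the lower one of each genotype for the spermatid sums, at 2188 and 1112 against 3092 and 2530 FPKM. The spermatogonia sums were likewise lower there, at 79.25 and 56.4 against 82.8 and 76.9 FPKM. Those of pachytene spermatocytes, Ldhc included, were higher there, at 6005 and 6149 against 5889 and 6194 FPKM. Without Ldhc they were at 2394 and 2290 against 2187 and 2335 FPKM, so lower in replicate 2 of the wild type. The median of these pachytene markers was lower in replicate 2 of each genotype, at 134 and 121 against 96.8 and 93.9 FPKM. The median over all genes, given above, was lower in replicate 2 as well. Whether any of these cells contribute to the values of these members was not tested. Among the immune markers, Ptprc was at 0.10 to 0.17 FPKM, Fcer1g at 0.68 to 1.47 FPKM and H2-Ab1, the highest, at 2.75 to 3.18 FPKM, and their part in these values was not tested either.

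**Figure D3:**
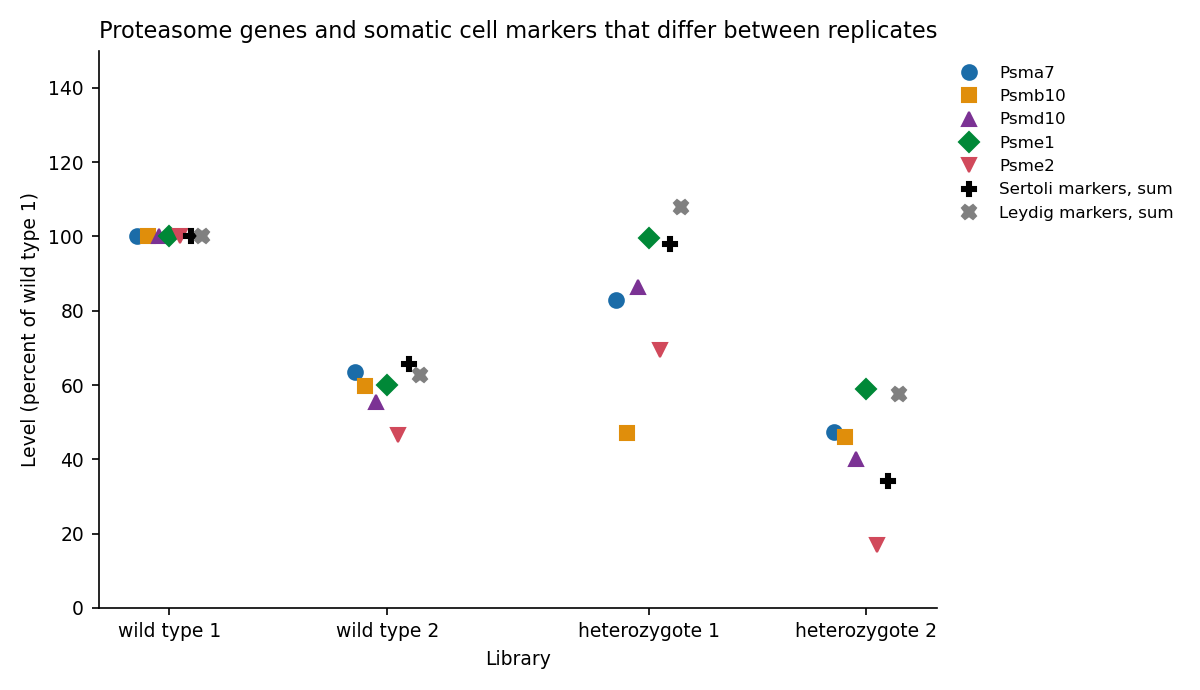
Level of 5 members and the summed level of Sertoli and Leydig cell markers in each library, as a percentage of wild-type replicate 1. All of them except Psmb10 in the heterozygote are clearly lower in replicate 2 than in replicate 1 of the same genotype.

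Between the genotypes, the proteasome genes differed by small amounts, and no member passed the test. Several core, cap and assembly genes were higher in the heterozygote by 1.13 to 1.66 times, whereas Psme4 and Psmd7 were lower. By limma-trend on log2(FPKM + 1), with Benjamini-Hochberg adjustment over 13333 genes, 0 of 45 members were called at an adjusted p under 0.05. No other gene was called either (0% of genes), and the smallest adjusted p of a member was 0.151, that of Psmb5. At an unadjusted p under 0.05 there were 9 members higher and 2 lower in the heterozygote, against 7.63% and 5.57% of all genes tested. Among genes whose mean reached 20 FPKM the shares were 15.6% and 8.74%, and of the 36 members at that level 8 were higher (22.2%) and 2 lower (5.56%). With scaling by median ratios 2 members were higher and 0 lower, where 4.40% and 3.96% of genes were. With a correction for transcript length there were 1 and 1 (4.59% and 4.22% of genes), and with scaling to an equal sum 6 and 2 (5.37% and 6.86%). Without heterozygote replicate 2 there were 4 and 1 (3.73% and 2.85%). Of the 16 spermatid markers, 5 were higher without overlap in the heterozygote and 11 overlapped. With these markers as a covariate 7 members were higher and 4 lower, where 9.22% and 13.6% of genes were, and the part of spermatids in the values was not tested.

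Both heterozygote libraries exceeded both wild-type libraries in 20 of the 45 members tested, where the share over all genes tested was 23.6%, and lay below them in 5, against 19%. Together 25 members did not overlap, where the share over all genes was 42.6%, and the remaining 20 overlapped. The count of higher members was 12 with scaling to an equal sum, where 18.6% of all genes were higher, and the count of lower ones was 7, where 23.5% were. With scaling by median ratios the counts were 17 and 4 (19.8% and 17.2% of genes). Without wild-type replicate 1 there were 30 higher and 5 lower, against 41.4% and 25.6% of genes. Without wild-type replicate 2 there were 22 higher and 17 lower, against 31.5% and 44.6% of genes. There were 25 and 10 without heterozygote replicate 1 (33.2% and 42.4% of genes) and 23 and 8 without heterozygote replicate 2 (38.8% and 26.9%). Abundant genes leaned the same way as the members. Of the 4233 genes whose mean reached 20 FPKM, 34.1% were higher and 21.9% lower without overlap, and of the 36 members at that level 18 were higher and 4 lower.

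The median log2 difference was 0.066 over the 45 members tested and 0.076 over all 48, compared with -0.015 over all genes tested and 0.037 over the genes of at least 20 FPKM. By role, the median was 0.27 over the 4 assembly chaperones, 0.16 over the 6 ATPases, 0.13 over the 11 beta genes and 0.051 over the 14 non-ATPase genes. It was -0.015 over the 8 alpha genes and -0.18 over the 4 activators. The difference was positive for 31 of the 45 members tested (68.9%) and for 6 of 6 ATPases, against 47.7% of all genes tested. The sign did not hold for every ATPase in every setting. Psmc3 was at -0.060 with quantile normalization. Psmc6 was at -0.080 without wild-type replicate 2 and at -0.018 without heterozygote replicate 2. Of the activators, Psme3 and Psme1 were both at -0.01, within their SEs of 0.11 and 0.32. The summed level of the core, cap and other members was 3707 and 3553 FPKM for the wild type, against 3858 and 3982 FPKM for the heterozygote, a ratio of means of 1.08.

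**Figure D4:**
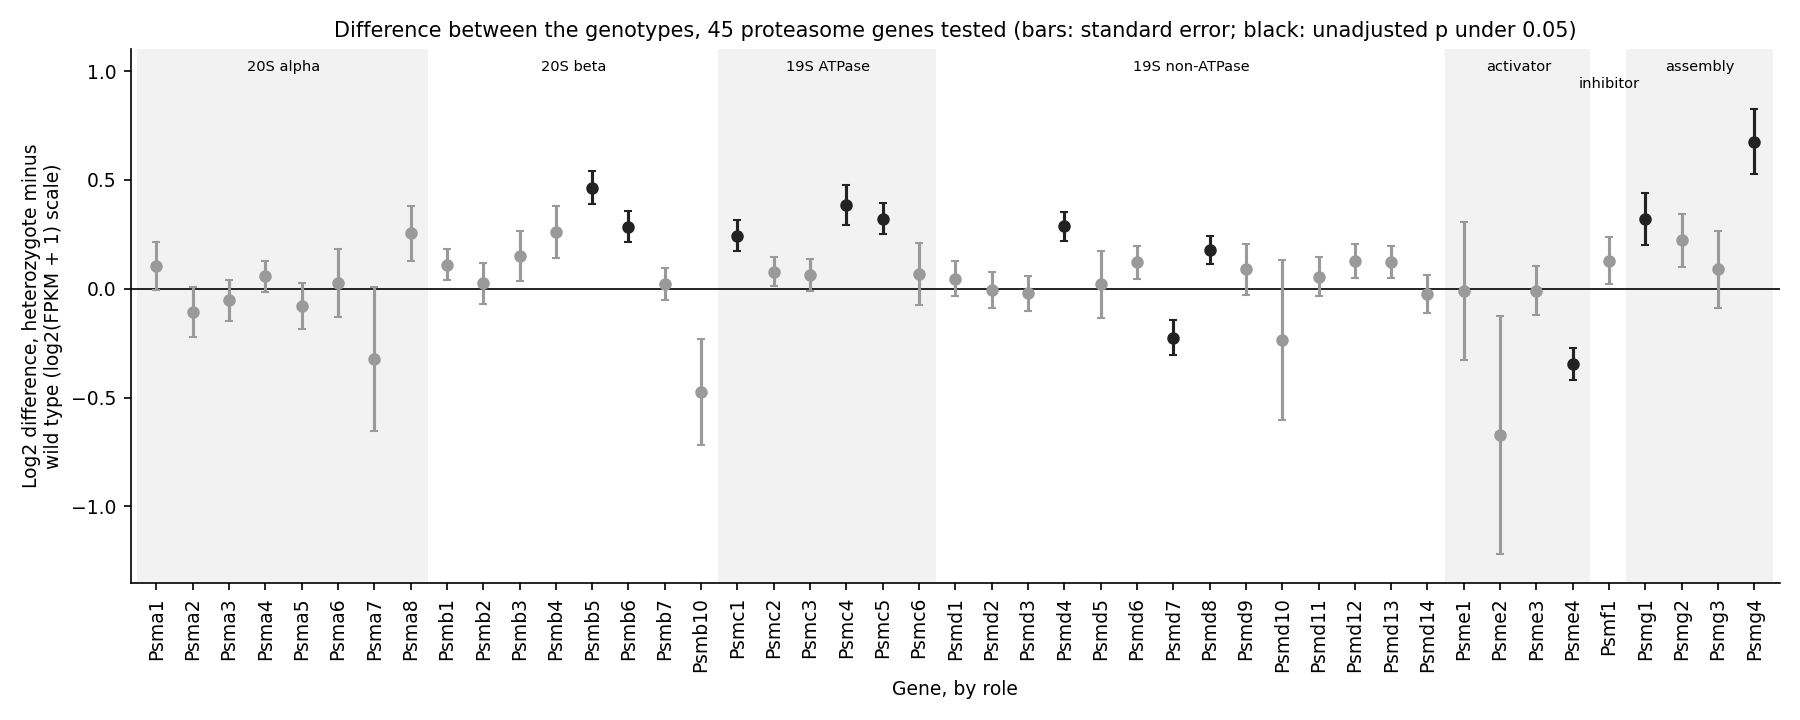
Log2 difference between the genotypes (heterozygote minus wild type, log2(FPKM + 1) scale) of the 45 members tested, by role, with the standard error from limma-trend as bars. Black points had an unadjusted p under 0.05, 9 above 0 and 2 below, and none passed after adjustment.

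The members with the smallest p in the higher direction were Psmb5, Psmc5, Psmg4, Psmc4, Psmd4 and Psmb6. Psmb5 (chromosome 14, 54614120 to 54617995) had group means of 92.7 ± 3.27 and 128 ± 4.43 FPKM (SD, n = 2 each), 1.38-fold apart, with a log2 difference of 0.46 (SE 0.08). Psmc5, an ATPase on chromosome 11, was at 108 and 108.5 FPKM for the wild type, against 132 and 139 FPKM for the heterozygote, a log2 difference of 0.32 (SE 0.07; limma-trend adjusted p = 0.191). The gap between the genotypes was wide against that between the wild-type libraries. The heterozygote libraries lay further apart (SD 4.78 against 0.544 FPKM, n = 2 each). Psmc4, an ATPase on chromosome 7, was at 47.0 and 45.9 against 58.0 and 64.1 FPKM, 1.31-fold higher (log2 difference 0.38, SE 0.09; limma-trend adjusted p = 0.211). Psmd4 and Psmb6, whose values are given above, were each 1.22-fold higher (limma-trend adjusted p = 0.211 and 0.221). Psmg4 had the largest ratio, with means of 9.80 ± 0.863 and 16.3 ± 1.61 FPKM (SD, n = 2 each), 1.66-fold apart (log2 difference 0.68, SE 0.15; limma-trend adjusted p = 0.194).

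These genes have different parts in the particle. Psmb5 and Psmb6 cut, Psmc4 and Psmc5 drive substrate into the barrel, Psmd4 binds ubiquitin chains and Psmg4 helps to assemble the alpha ring. The remaining members with an unadjusted p under 0.05 in this direction were Psmc1, Psmd8 and Psmg1, with log2 differences of 0.24, 0.18 and 0.32 (limma-trend adjusted p = 0.263, 0.352 and 0.368). Psma8 was higher in both heterozygote libraries by a narrow margin, with group means of 165 ± 13.9 and 197 ± 28.8 FPKM (SD, n = 2 each; limma-trend adjusted p = 0.509), and its spread between heterozygote replicates exceeded its gap to the wild type.

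In the lower direction, Psme4 had the smallest p. Its group means were 97.3 ± 3.04 FPKM in the wild type and 76.3 ± 1.499 FPKM in the heterozygote (SD, n = 2 each), a 1.28-fold difference with a log2 value of -0.35 (SE 0.07; limma-trend adjusted p = 0.187). In the deposited gene models the neighbour Erlec1, on the opposite strand, overlaps Psme4 by 14730 bases. This overlap is of whole gene spans with introns, and the longest Psme4 transcript has 6442 bases. Whether exons of the 2 genes overlap was not measured. No strand-keeping step is described for the libraries, so reads of any shared exon sequence could not be told apart. Erlec1 was at 53.0 and 50.3 FPKM for the wild type, against 39.1 and 42.3 FPKM for the heterozygote, a log2 difference of -0.34. The part of the overlap in the Psme4 value was not tested.

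Psmd7 (chromosome 8, 107580380 to 107588482) was the other member with an unadjusted p under 0.05, at a log2 difference of -0.22 (SE 0.08; limma-trend adjusted p = 0.333). Psmb10, at -0.48 (SE 0.24), had a p above that mark. Psmd14 and the lid gene Psmd3 were lower without overlap but by only 1.02-fold each. Psmd3 was at 46.3 and 45.5 against 45.3 and 45.1 FPKM. Psme2 had the most negative difference of all members tested, at -0.67 with an SE of 0.55, and its genotypes overlapped. The difference was 0.0009 without heterozygote replicate 2. That setting sets heterozygote replicate 1 against both wild-type replicates, and Psme2 was lower in replicate 2 of each genotype. It therefore cannot tell whether the difference rested on that library. At the same replicate number the heterozygote was lower in both, at 4.09 against 5.9 FPKM and 1 against 2.75 FPKM.

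**Figure D5:**
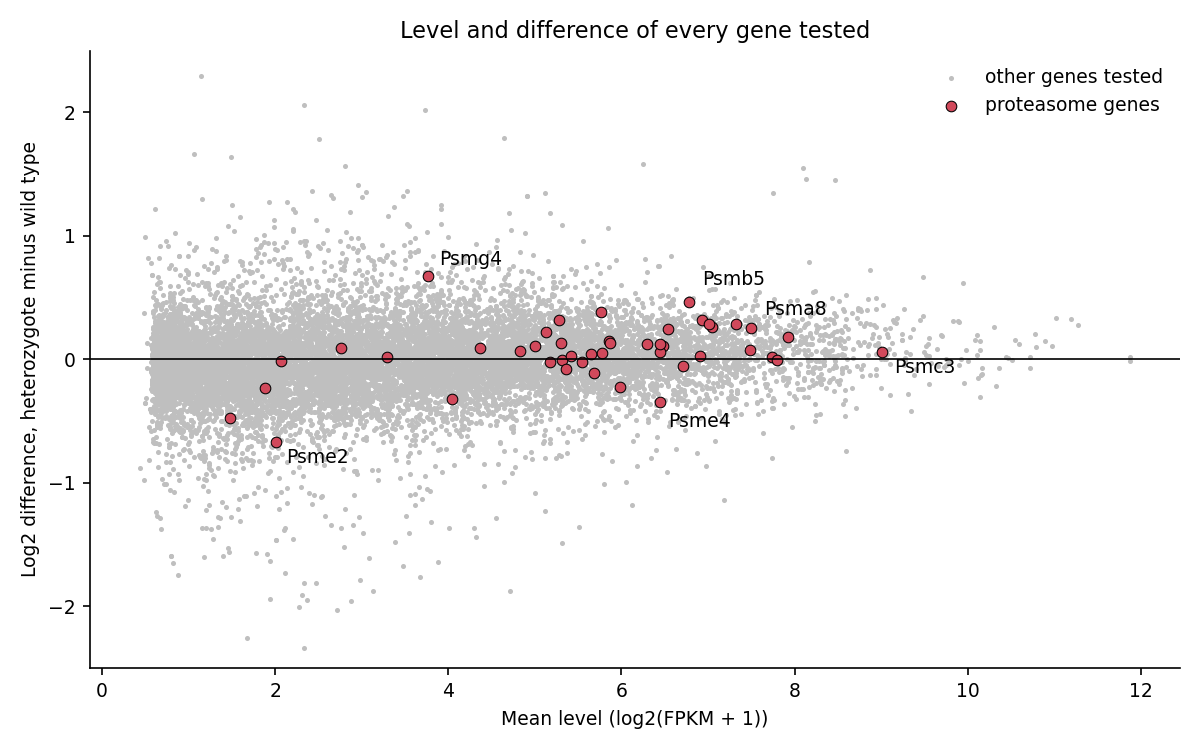
Mean level against the difference between the genotypes (both on the log2(FPKM + 1) scale) for every gene tested, with the 45 proteasome genes in red; 3 other genes lie beyond the plotted range. The proteasome genes lie within the cloud of other genes of similar level, from -0.67 for Psme2 to 0.68 for Psmg4.

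Ratios between paired genes were compared over the 7 pairs chosen. Most pairs set a special form against its counterpart. Psme4 and Psme3, however, are separate activators, and the products of Psme1 and Psme2 join in the same cap. The log2 ratio of Psme4 to Psme3 was 1.17 and 1.43 for the wild type, against 1.01 and 0.91 for the heterozygote, so the heterozygote libraries lay lower. The ratio of Psmb10 to Psmb7 was also lower in both heterozygote libraries, at -6.49 and -6.52 compared with -5.81 and -6.21. The ratio of Psme1 to Psme2 was higher in both, at 0.0028 and 0.78 compared with -0.43 and -0.11. Its difference of 0.66 was the largest of the 7 pairs but depended on single libraries. It was 0.27 without heterozygote replicate 2, where Psme2 was at 1 FPKM, and 1.05 without heterozygote replicate 1. With 2 libraries against 2 no pair can reach a p below 0.333, and all had an adjusted p of 0.467 or 0.667 (exact permutation test, two-sided). The ratio for Psmb8, Psmb9 and Psmb11 rests on values under 0.6 FPKM, where the pseudocount of 1 hides most of the form's own change.

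The partners of the proteasome that carry no Psm symbol gave a mixed picture. Of 11 with a value, 3 were higher and 4 lower without overlap, where the shares over all genes tested were 23.6% and 19%. Of these partners 0 were called after adjustment and the median log2 difference was -0.10. Adrm1, a ubiquitin receptor of the cap, was at 92.8 and 82.4 FPKM for the wild type, against 98.9 and 109 FPKM for the heterozygote. Ube3c, a ubiquitin ligase that acts at the proteasome, was at 30.4 and 32.1 against 23.9 and 25.3 FPKM (limma-trend adjusted p = 0.270). Akirin2, which is known to bring proteasomes into the nucleus, was at 113 and 121 against 105 and 86.8 FPKM, and Pomp, the core maturation factor, at 95.7 and 95.8 against 96.9 and 94.4 FPKM.

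Genes that deliver substrates were also mixed. Of 10 ubiquitin shuttle genes, 2 were higher and 1 lower without overlap, to be read against the same shares of all genes, as are the counts that follow. Of 7 genes of the p97 segregase, which pulls ubiquitinated proteins out of complexes, 3 were higher and 1 lower. The lower one was the adaptor Nploc4, at 68.5 and 77.8 against 56.9 and 57.8 FPKM. Among 7 genes for transcription factors of proteasome genes and their processing, 0 were without overlap, and Nfe2l1 was at 21.5 and 18.5 against 20.6 and 17.6 FPKM. Of 12 antigen processing and interferon genes, 3 of the 6 tested were higher without overlap, including the class I gene H2-K1 at 39.4 and 36.8 against 50.3 and 50.4 FPKM, and 0 lower. In these lists no gene passed the adjusted test.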

How the data were processed

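RNA was extracted with Trizol, captured on oligo(dT) beads and sequenced on a BGISEQ-500, per the labels' protocols. The authors deposited FPKM per gene, per the file headers, with 2 decimals. The submitters' processing notes list RSEM 1.2.12, Bowtie2 2.2.5, HISAT2 2.0.4 and GRCm38 (mm10) without their roles. Depth is unknown, so counting error cannot be given.

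Tables were joined by gene identifier. Left out were 1593 genes with no value in any library and, from each file, 1 row that held no gene. A gene without a value in some libraries was set to 0 there. Genes averaging 0.5 FPKM or more (13333) entered limma-trend (limma 3.58.1, R 4.3.3) on log2(FPKM + 1), two-sided, with genotype alone in the model. Differences on that scale understate the change of low genes; printed fold values are ratios of mean FPKM. FPKM are shares of a library, so more of some transcripts means less of others. The fit was tested on simulated data in which the noise was independent between libraries. Same-numbered libraries of these data shared deviations, as given below, a setting that the simulation did not cover. The 48 members and the gene lists were chosen with earlier results of these data known. Named were special forms and their counterparts, the extremes of each role, Psmd14, the other activators, Psmf1 and the 6 members of smallest p in each direction whose genotypes did not overlap, of which the lower direction had only 5. Other members and pathway genes printed were chosen after their values were seen. Alternatives were another pseudocount, filters, scalings, a length correction, marker covariates, a replicate block and leaving out each library. Overlap counts under other scalings, the share of genes of at least 20 FPKM and marker sums without their largest genes were chosen after seeing the data. The files place 4 members on scaffolds, whose positions are not printed.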

Additional observations from a re-analysis of the deposited data

How the results depend on the processing

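No gene was called with either alternative filter, a pseudocount of 0.1, scaling to an equal sum, limma without a trend or any library left out (0 to 0). The count of genes was 55 with scaling by median ratios, 135 with quantile normalization, 111 with correction for transcript length, 371 and 147 with the spermatid and Sertoli marker covariates and 1213 with the replicate block. The cause was not tested. Members were called only with the replicate block, which called 6 of 45 members, where it called 1213 of all 13333 genes tested. These members were Psmb5, Psmg4, Psmc4 and Psmc5, higher, and Psme4 and Psme2, lower. The labels do not say that a number marks shared animals or days, and there are only 2 pairs. Deviations of same-numbered libraries from their group means correlated at 0.529 over genes and 0.731 over members. The median log2 difference of the 48 members was above 0 in every setting run, at 0.076 as reported, 0.032 with scaling to an equal sum and 0.056 to 0.11 without 1 library. Small differences changed sign: Psmb7 (-0.030, -0.050 and -0.014 with equal sums, quantiles and length correction), Psmc3 (-0.060) and Psme1 (0.061) with quantiles, and Psme3 (0.012) with length correction. Without 1 library the ranges were -0.038 to 0.082 for Psmb7, -0.080 to 0.21 for Psmc6, -0.10 to 0.087 for Psme3, -0.30 to 0.28 for Psme1, -0.62 to 0.15 for Psmd10, -0.70 to 0.053 for Psma7 and -1.347 to 0.0009 for Psme2. The log2 ratio of Psmb9 to Psmb6 differed by -0.16, by 0.086 with a pseudocount of 0.1 and by -0.34 to 0.019 without 1 library. Leaving out 1 library leaves a genotype with 1, assumed to vary like the other. Members under 0.5 FPKM are limited by depth, which is unknown.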
